A study of Mus musculus with 42 samples.

Results

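The solute carrier (SLC) genes, which encode the largest group of membrane transporters, were followed on bead arrays from the mouse inner cell mass (ICM) through its outgrowths to embryonic stem cells (ESCs). The genes were chosen by symbol (Slc, a family number, letters and a member number, without Slc40a1 and Slc11a2) and selected on detection: a probe had to reach a detection p under 0.05 on every array of at least 1 group of the hybrid mice. Of 322 such symbols on the array, 186 were members and 136 were not. The same detection rule kept 9162 of 16593 genes in all. For each gene the probe with the highest mean log2 intensity was used. A few symbols that meet the rule name proteins that are not carriers, among them Slc9a3r1 and Slc9a3r2, which are scaffold proteins, and Slc4a1ap and Slc7a6os, which are named after a partner and a neighbouring gene.

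Hybrid mice are labelled without a cross, and the study lists several crosses with B6 x C3H for this run and other experiments together. They gave the first set of samples, with 2 biological replicates a group on MouseRef-8 arrays. It held ICM freed of trophectoderm by immunosurgery at embryonic day 3.5, ICM outgrowths after 0.5, 1, 2, 3 and 5 days (IO-0.5 to IO-5) and ESCs at passages 2, 4 and 15 (P2, P4 and P15). These cultures were kept in N2B27 medium on gelatin with R2i, which is 1 µM PD0325901 (an inhibitor of the kinase MEK) and 10 µM SB431542 (which blocks the type I receptor for TGF-β), and with 1000 U/mL LIF. The SBIO-1 and SBIO-3 outgrowths grew for 1 and 3 days with SB431542 and LIF and without PD0325901, and were the negative controls. BALB/c mice gave the other set, with 3 biological replicates a group on WG-6 arrays. It held immunosurgically isolated ICM of embryonic day 3.5, outgrowths of whole blastocysts on days 3, 5, 7 and 9 (BO-3 to BO-9) and ESCs at passage 20. These outgrowths and ESCs were also kept in N2B27 medium on gelatin with R2i and 1000 U/mL LIF. Each ICM or outgrowth replicate pooled about 20 to 30 ICMs or outgrowths in the BALB/c set and about 30 to 40 in the hybrid set. Outgrowths from whole blastocysts start with trophectoderm as well as ICM, and all pools mix the cell types that an outgrowth holds.

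Solute carriers move amino acids, sugars, nucleosides, vitamins, lipids, metals and ions across the plasma membrane and the membranes of organelles. Most work as facilitators, exchangers or symporters that draw on the gradients of sodium, protons or a second substrate, and several amino acid carriers act only as a light chain bound to a heavy chain such as Slc3a2. In early embryos and ESCs they are known for glucose uptake through Slc2a1 and Slc2a3, and for the amino acids that feed growth and one-carbon metabolism. Grouped by the substrate that the family number stands for, with the non-carriers counted under their number (Slc7a6os with amino acids, Slc4a1ap with anions), the members held 28 mitochondrial carriers, 24 amino acid carriers, 20 nucleotide sugar carriers, 18 carriers of zinc and other metals, 8 of bicarbonate and other anions and 8 of sugars. The remaining groups held 6 or fewer.

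The hybrid ICM arrays were dim. They detected 24.2% and 18% of all probes, whereas the other hybrid groups detected 33% to 45.6%. In hybrid ICM 69 of the 186 members (37.1%) were detected on both arrays, as were 37.8% of all genes kept, against 113 to 155 members in every other group. Changes that involve hybrid ICM are given with that in view, and the part of array brightness in them was not tested. The tests omitted BO-3 replicate 1, which detected 26.2% of probes, against 33.8% and 35.4% on the other BO-3 arrays. Members just inside the detection limit had a highest p of 0.04261 (Slc39a5), 0.04135 (Slc13a3), 0.0401 (Slc43a2) and 0.03885 (Slc24a5) in their best group, and those just outside had 0.05013 (Slc6a7), 0.05263 (Slc27a6), 0.05639 (Slc1a2) and 0.0589 (Slc39a3). A gene was called changed at a fold of at least 2 and a Benjamini-Hochberg adjusted p from limma of at most 0.01 in the hybrid set or 0.05 in the BALB/c set. Where a gene was detected on no array of 1 group, its fold is given as a lower bound ("at least"), set against the dimmest detected signal of each array or the gene's own signal, whichever was higher.

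After 3 days with or without the MEK inhibitor, the outgrowths differed in a small and varied set of transporters. IO-3 was higher in Slc27a2, an acyl-CoA synthetase and fatty acid transporter, in Slc7a3, a carrier of arginine and lysine, and in Slc12a8, of the cation-chloride cotransporter family. SBIO-3 was higher in Slc7a9, the light chain of the carrier of cystine and dibasic amino acids, and in 3 zinc carriers. In all, 19 of 186 members were called (10.2%), 9 higher and 10 lower in IO-3, against 12.3% of all genes tested, so the share of members was close to the background. With array medians made equal, 23 were called higher and 1 lower, and the median of all genes moved by 1.08. In pools of whole outgrowths, fewer cells of a type and less RNA per cell cannot be told apart.

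Slc27a2 read 8.20 and 8.27 log2 units on the IO-3 arrays, and 4.45 and 4.31 on the SBIO-3 arrays, where it was not detected. It was at least 8.50-fold higher in IO-3 (log2 change 3.85 ± 0.20 SE, n = 2 and 2, adjusted p = 9.73e-09, limma). The groups lay far apart, and uncultured ICM, at 4.40 and 4.29, did not detect it either. Slc7a3 read 12.50 and 12.58 in IO-3, against 8.82 and 9.22 in SBIO-3. Its 11.5-fold difference (log2 3.52 ± 0.20, adjusted p = 1.65e-08) left SBIO-3 with the lowest mean of all 11 hybrid groups. Slc12a8 read 7.43 and 7.25 in IO-3, and 4.33 and 4.38 in SBIO-3, where it was undetected. It was at least 4.59-fold higher in IO-3 (log2 2.99 ± 0.20, adjusted p = 1.16e-07). These 3 genes kept their calls under every alternative setting except, for Slc7a3 and Slc12a8, a fit on the 4 arrays compared alone, in which 1 of the 19 members was called.

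The other members called higher in IO-3 were smaller changes in carriers of varied substrates. Slc6a6, the taurine transporter, read 10.66 and 10.51 against 8.50 and 8.93 in SBIO-3 (3.67-fold, adjusted p = 8.36e-05, limma). Slc29a4, a monoamine transporter, read 6.66 and 6.22 against 5.03 and 4.28, and was at least 2.45-fold higher (adjusted p = 0.000919). Slc44a1, a choline transporter, read 7.51 and 7.19 against 5.43 and 5.74 (3.39-fold, adjusted p = 0.00107). The arrays of the groups did not overlap for any of them. The list ended with Slc35d3 and Slc35f2, of the nucleotide sugar families, and Slc48a1, a heme transporter, with log2 changes from 1.20 to 1.33.

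Among members lower in IO-3, amino acid carriers came first. Slc7a9 read 4.31 and 4.74 in IO-3, where 1 of 2 arrays detected it, and 8.36 and 9.04 in SBIO-3. The measured difference was 18.1-fold (log2 -4.18 ± 0.35, adjusted p = 8.78e-07, limma), against an IO-3 level near background. Slc66a1, which exports cationic amino acids from lysosomes, read 6.70 and 6.51 against 8.82 and 8.47 (4.11-fold lower, adjusted p = 0.00103). Slc36a1, a proton-coupled carrier of small amino acids found on lysosomes, read 5.27 and 5.04 against 7.20 and 7.03 (3.88-fold lower, adjusted p = 0.000104). Slc12a9, of the cation-chloride cotransporter family, read 5.77 and 5.66 against 7.66 and 7.48 (3.62-fold lower, adjusted p = 0.000632). In each of these genes both SBIO-3 arrays stood clear of both IO-3 arrays, but Slc66a1, Slc36a1 and Slc12a9 lost their calls with array medians made equal. Slc7a8, the light chain of a carrier of large neutral amino acids, read 5.79 and 5.84 in IO-3 but 8.54 and 6.80 in SBIO-3. Its 3.62-fold difference (adjusted p = 0.00848) was no longer called without any one of IO-3 replicate 1 (log2 -1.83), IO-3 replicate 2 (-1.87) or SBIO-3 replicate 1 (-0.99).

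The zinc carriers that were called on day 3 all belonged to the importing (Slc39) family, and all were lower in IO-3. Slc39a7, which releases zinc from the endoplasmic reticulum, read 9.04 and 9.03 in IO-3 against 10.65 and 10.44 in SBIO-3 (log2 -1.51, adjusted p = 0.000494, limma). Slc39a4, the uptake carrier of the cell surface, read 9.93 and 9.54 against 10.84 and 10.99 (log2 -1.19, adjusted p = 0.000534). Slc39a13, a carrier of intracellular membranes, read 5.70 and 5.64 against 7.30 and 7.54 (3.37-fold lower, adjusted p = 0.000738). The other 15 of 18 metal carriers were not called. With array medians made equal, the first pair turned to 0.42 and 0.72, and Slc39a13 was no longer called at -0.25. Of the genes that buffer zinc, none of 3 tested was called on day 3.

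The arrays of the day 3 groups also differed in brightness and in cell markers. The 95th percentile of deposited intensity was 1558 and 1860 in IO-3, and 260.8 and 673.3 in SBIO-3. The mean log2 level of 8 pluripotency markers ranged from 8.81 to 9.07 in IO-3 and from 6.56 to 7.25 in SBIO-3, with 5 called higher in IO-3. That of 11 primitive endoderm markers was 8.61 to 8.62 against 10.41 to 10.46, with 4 called lower, and that of 9 trophectoderm markers was 7.87 to 7.89 against 9.24 to 9.38, with 6 called lower. Their part in the solute carrier differences was not tested. Leaving out either IO-3 replicate reduced the 19 calls to 11.

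**Figure D1:**
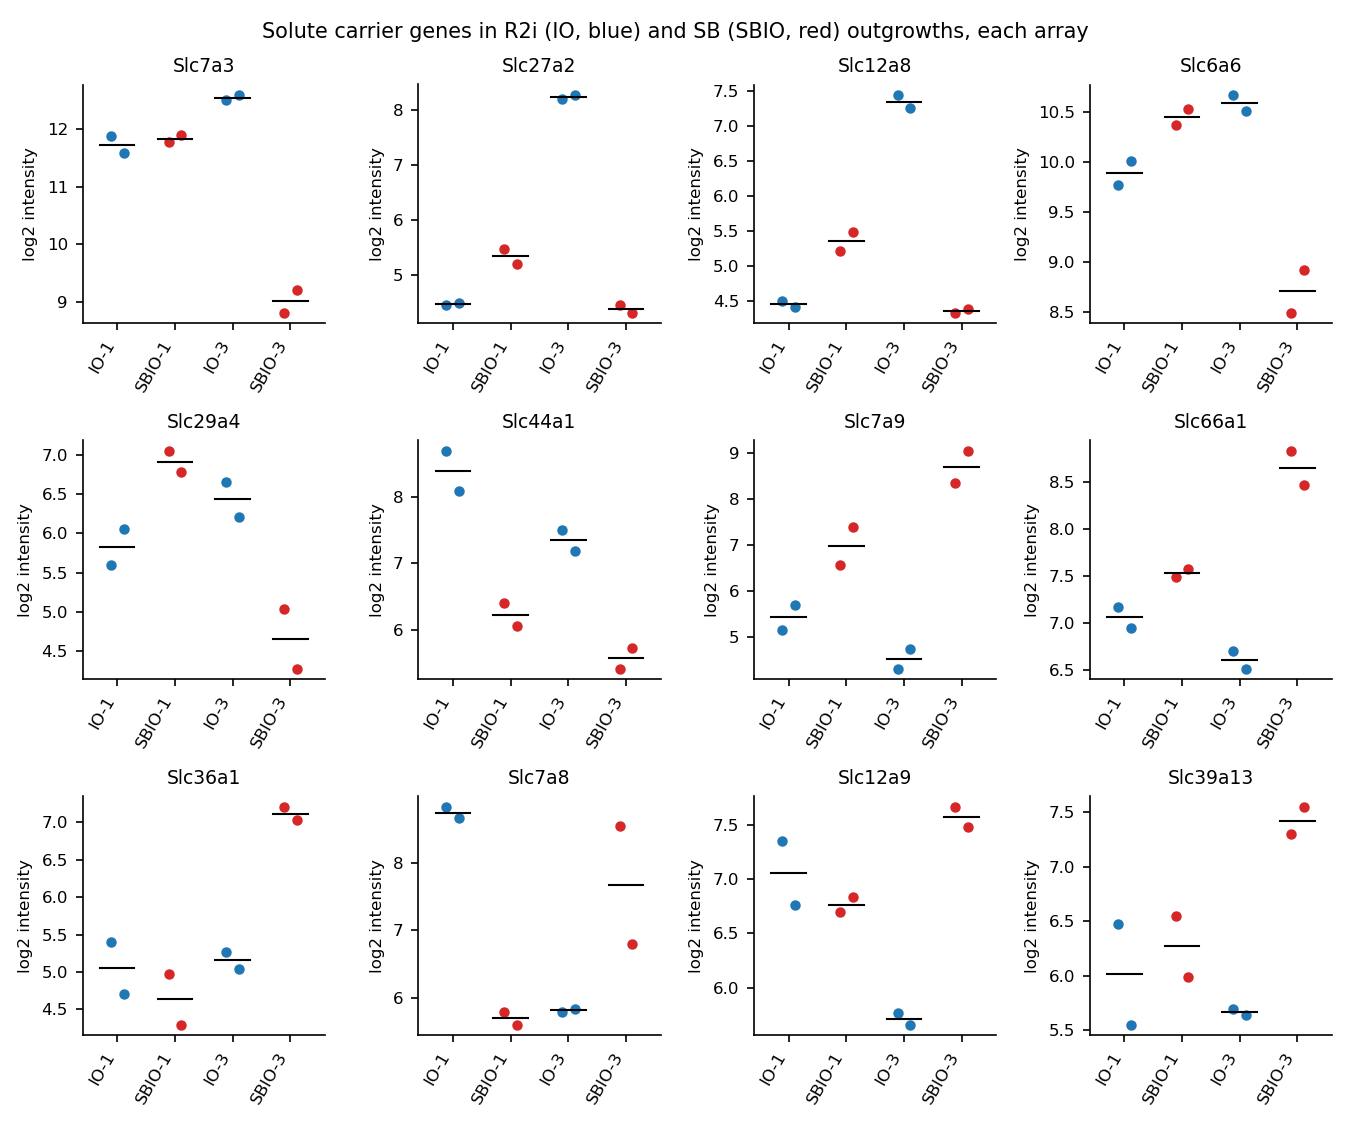
Log2 intensity of 12 solute carrier genes on each hybrid array of IO-1, SBIO-1, IO-3 and SBIO-3, with R2i in blue and SB in red. Points are arrays (2 a group) and lines are group means. Slc7a3, Slc27a2 and Slc12a8 are low in SBIO-3 and high in IO-3, whereas Slc7a9 is high in SBIO-3.

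The promoters of 4 of the called genes are shown because they contain, or lack, the 2 motifs searched. These were the E-box letters CACGTG, bound by basic helix-loop-helix factors, and AAGGTCA or its reverse TGACCTT, the core bound by the pluripotency factor Esrrb and its relatives. Both strands were searched in windows of 300 bases around the transcription start (RefSeq, GRCm38.p6), and 150 of the 186 members had an entry. Capitals mark the motif. Slc27a2 lies at chr2:126552774-126553073 (+ strand) and Slc12a8 at chr16:33517078-33517377 (+), both higher in IO-3. Slc36a1 at chr11:55204090-55204389 (+) and Slc12a9 at chr5:137333533-137333832 (- strand) were both lower in IO-3.
Slc27a2: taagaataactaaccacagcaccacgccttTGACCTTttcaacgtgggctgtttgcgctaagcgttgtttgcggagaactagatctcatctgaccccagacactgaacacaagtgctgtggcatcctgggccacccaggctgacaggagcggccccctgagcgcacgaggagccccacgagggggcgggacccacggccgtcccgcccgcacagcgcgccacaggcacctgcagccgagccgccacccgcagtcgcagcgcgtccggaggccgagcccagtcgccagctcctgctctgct
Slc12a8: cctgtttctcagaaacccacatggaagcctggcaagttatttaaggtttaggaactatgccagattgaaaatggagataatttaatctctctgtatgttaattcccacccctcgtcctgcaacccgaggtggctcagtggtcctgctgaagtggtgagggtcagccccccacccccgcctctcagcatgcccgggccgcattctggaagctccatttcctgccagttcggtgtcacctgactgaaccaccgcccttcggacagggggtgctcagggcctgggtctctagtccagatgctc
Slc36a1: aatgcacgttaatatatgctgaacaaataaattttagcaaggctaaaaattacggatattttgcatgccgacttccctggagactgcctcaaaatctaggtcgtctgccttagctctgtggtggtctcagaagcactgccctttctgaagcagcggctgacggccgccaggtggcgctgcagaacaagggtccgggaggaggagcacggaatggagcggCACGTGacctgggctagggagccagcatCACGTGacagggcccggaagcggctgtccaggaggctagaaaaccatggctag
Slc12a9: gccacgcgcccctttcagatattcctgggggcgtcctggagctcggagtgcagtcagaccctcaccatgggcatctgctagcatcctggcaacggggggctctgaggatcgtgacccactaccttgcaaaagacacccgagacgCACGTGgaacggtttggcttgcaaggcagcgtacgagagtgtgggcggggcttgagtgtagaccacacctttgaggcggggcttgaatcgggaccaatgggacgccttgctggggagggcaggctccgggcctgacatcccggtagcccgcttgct

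Slc27a2 held 1 match to TGACCTT, Slc36a1 held 2 to CACGTG, Slc12a9 held 1, and neither motif was in the window of Slc12a8. CACGTG was found in 24 of 150 member promoters (16%) and in 1957 of 27025 promoters of all genes (7.24%). The members were selected on detection and the 27025 promoters were not, so shares of the 2 sets are not like for like. Among members called on day 3 it was in 0 of 6 higher in IO-3 and in 2 of 9 lower. The Esrrb core was in 6 of 150 member promoters (4%) and in 4.66% of all promoters, and in 1 of 6 higher and 0 of 9 lower. These matches describe the letters in the window and were not tested for binding.

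On day 1 the media differed in another set of members, of which Slc44a1 and Slc7a8 were also called on day 3. Here 9 of 186 members were called (4.84%), 5 higher and 4 lower in IO-1, against 2.81% of all genes tested. With array medians made equal, 3 members were called, 0 higher and 3 lower, and Slc44a4, Slc7a8, Slc28a3, Slc1a1 and Slc44a1 lost their calls. Choline-like carriers were prominent, with 3 of 4 called. Slc44a4, a choline-like carrier that in human cells takes up thiamine pyrophosphate, read 9.89 and 9.96 in IO-1, and 6.95 and 6.64 in SBIO-1 (8.76-fold higher, log2 3.13 ± 0.30, adjusted p = 9.05e-06, limma). Slc44a1 read 8.67 and 8.08 against 6.41 and 6.07 (4.40-fold, adjusted p = 0.000757). Slc44a3 went the other way, with 4.81 and 6.43 in IO-1 and 8.70 and 8.59 in SBIO-1 (8.16-fold lower, adjusted p = 0.000165). The IO-1 arrays disagreed on this last gene, which was detected on 1 of them.

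Carriers of glutamate were called in either direction on day 1. Slc1a1, which takes up glutamate, aspartate and cysteine, read 10.07 and 10.02 in IO-1 against 7.82 and 6.91 in SBIO-1 (6.39-fold higher, adjusted p = 0.00618, limma). Slc1a3, the other glutamate carrier called, read 7.32 and 7.77 against 10.77 and 10.32 (7.99-fold lower, adjusted p = 0.000304). Neither pair of groups overlapped, but Slc1a1 lost its call when any 1 of the 4 arrays was left out, with no filter and with equal array medians (adjusted p up to 0.182 over its alternatives, limma). Slc7a8 read 8.82 and 8.66 against 5.79 and 5.60 (8.28-fold higher, adjusted p = 0.000748), and the concentrative nucleoside transporter Slc28a3 read 8.74 and 8.71 against 5.88 on both SBIO-1 arrays (7.20-fold higher, adjusted p = 0.000821). The lysosomal carrier Slc46a3 (6.92-fold) and the glutamine carrier Slc38a5 (2.39-fold) were lower in IO-1. Slc38a5 was detected on 1 IO-1 array and met the detection rule through SBIO-1 only, the group where it was highest. Trophectoderm markers stood at 9.64 to 9.93 in IO-1 and 7.67 to 7.71 in SBIO-1, with 6 of 9 called higher. Primitive endoderm markers stood at 9.08 to 9.32 against 10.13 to 10.19, with 2 of 11 called lower. Pluripotency markers stood at 9.28 to 9.42 against 8.29 to 8.49, with 2 of 8 called higher. The 95th percentile of intensity was 362 and 1110 in IO-1, and 1475 and 1515 in SBIO-1. The part of the markers and of brightness in these differences was not tested. The count of 9 became 4 without IO-1 replicate 1, 5 without SBIO-1 replicate 1 and 3 without SBIO-1 replicate 2.

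The effect of the medium itself was compared between the days by an interaction term, and 18 of 186 members were called (9.68%, 11 more positive and 7 more negative on day 3), against 11.4% of all genes tested. Slc27a2 had a day 1 difference of -0.87 (adjusted p = 0.0168, not called) and a day 3 difference of 3.85, so that the change differed by 4.72 ± 0.28 (adjusted p = 7.92e-08, limma). It was undetected in IO-1 at 4.45 and 4.49, while SBIO-1 read 5.47 and 5.20. Slc12a8 moved from -0.89 to 2.99 (difference 3.88 ± 0.28, adjusted p = 6.17e-07), with 4.50 and 4.41 in IO-1 and 5.21 and 5.49 in SBIO-1. Both genes were detected in SB on day 1 and not on day 3, and their R2i arrays took the reverse course. Slc7a3 moved from -0.11 to 3.52 (difference 3.63 ± 0.28, adjusted p = 8.75e-07), its SBIO-1 arrays at 11.77 and 11.89 beside 11.88 and 11.58 in IO-1.

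Slc7a8 showed the widest reversal, from 3.05 on day 1 to -1.86 on day 3 (difference -4.91 ± 0.65, adjusted p = 0.000123, limma). Slc44a4 lost its day 1 difference, reading 7.64 and 7.67 in IO-3 and 7.39 and 8.15 in SBIO-3, where the groups overlapped (difference between days -3.25 ± 0.42, adjusted p = 0.000103). Slc1a3 changed from 10.77 and 10.32 in SBIO-1 to 5.57 and 6.55 in SBIO-3, while the R2i arrays read 7.37 and 7.55 on day 3 (difference between days 4.40 ± 0.58, adjusted p = 0.000117). Slc7a9 read 5.15 and 5.70 in IO-1 against 6.56 and 7.39 in SBIO-1 (log2 -1.55, adjusted p = 0.0134, not called, but called with a replicate block or with 2 further BALB/c ICM arrays included, at an adjusted p down to 0.00762). Its day 3 difference was more negative by log2 -2.63 ± 0.49 (adjusted p = 0.00162). With array medians made equal, 45 members were called, 44 of them more positive, and the median of all genes moved by 1.80.

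**Figure D2:**
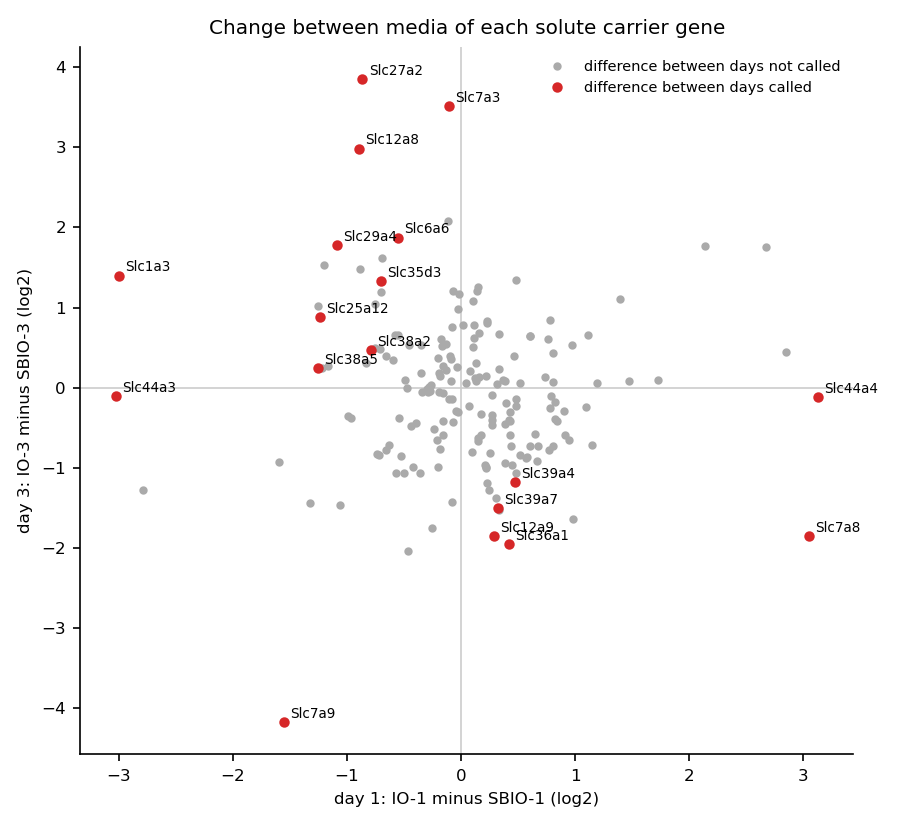
Log2 difference between R2i and SB outgrowths of each of the 186 solute carrier genes on day 1 (horizontal axis) and day 3 (vertical axis). Red points, with their symbols, are the 18 genes whose difference was called unequal between the days. Slc27a2, Slc12a8 and Slc7a3 lie high on the vertical axis and near or left of zero on the horizontal axis, and Slc7a8 lies at 3.05 and -1.86.

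Carriers of sugars and mitochondrial carriers were not called between the media on either day. Slc2a1, the widespread glucose facilitator, read 10.88 and 10.78 in IO-3 and 11.06 and 10.33 in SBIO-3 (log2 0.13, adjusted p = 0.713, limma). Slc2a3, the high-affinity glucose facilitator, read 12.09 and 12.12 against 12.52 and 12.54 (log2 -0.43, adjusted p = 0.117). None of the 8 sugar carriers was called on day 1 or day 3. None of the 28 mitochondrial carriers was called on either day, with a day 3 median change of 0.29 among them and 0.03 over all genes. The ADP/ATP carrier Slc25a5 had a day 3 difference of 0.75 (adjusted p = 0.013). The large neutral amino acid carrier Slc7a5 (0.51, adjusted p = 0.188), its heavy chain Slc3a2 (-0.73, adjusted p = 0.274) and the glutamine and alanine carrier Slc38a2 (0.47, adjusted p = 0.127) were not called either. A p above the limit does not show that levels were equal at 2 arrays a group.

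The members were chosen on the hybrid arrays, and the detection rule was applied again on the BALB/c arrays. There 162 of the 186 members passed it with the same probe, so these had passed in both sets. The 10086 genes tested beside them had to pass only on the BALB/c arrays, and the part of this in the shares called was not tested. Members undetected in ICM passed through a group where they were higher. The start and end points of derivation were compared with 3 arrays each. ESCs had more Slc7a3, Slc28a1 (a concentrative nucleoside transporter), Slc5a1 (the sodium-glucose cotransporter) and Slc38a2 than ICM. They had less Slc15a2 (the peptide transporter PEPT2), Slc38a4 (an amino acid carrier whose gene is imprinted in mice), Slc34a2 (a sodium-phosphate cotransporter), Slc30a1 (the zinc exporter of the cell surface) and Slc1a1. Of 162 members 60 were called (37%), 26 higher and 34 lower in ESCs, against 29.2% of all genes tested. Trophectoderm markers averaged 9.06 to 9.17 in ICM and 5.40 to 6.67 in ESCs, and primitive endoderm markers 8.62 to 9.09 against 5.24 to 6.75, with 8 called lower in each list. Their part in the falling members was not tested.

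Slc7a3 read 9.04, 8.64 and 9.05 in BALB/c ICM and 13.13, 13.30 and 13.29 in ESCs. The 20.1-fold rise (log2 4.33 ± 0.16, adjusted p = 6.11e-13, limma) was for the most part present by BO-3, at 11.66 and 11.62, and all outgrowth arrays lay between ICM and ESC. Slc28a1 was undetected in ICM at 4.47, 4.45 and 4.28 and read 8.46, 8.70 and 8.70 in ESCs, at least 13.4-fold higher (adjusted p = 1.63e-13). BO-3 already stood at 8.10 and 7.96. Slc5a1 read 4.36, 4.33 and 4.39 in ICM, undetected, then 6.37 and 5.91 in BO-3, and 7.64, 8.27 and 7.87 in BO-9. In ESCs, at 6.88, 7.04 and 7.21, it was at least 4.49-fold above ICM (adjusted p = 9.73e-10), with a maximum in between. Slc38a2 read 8.29, 7.56 and 8.49 in ICM and 10.43, 10.39 and 10.47 in ESCs (4.98-fold, adjusted p = 6.13e-08), and BO-3 read 10.06 and 9.95. The mitochondrial citrate carrier Slc25a1 was 4.79-fold higher in ESCs (adjusted p = 5.92e-07). In the hybrid set it was called the other way, 2.65-fold lower in P15 than in ICM (adjusted p = 0.00256, limma), a direction that turned with array medians made equal.

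Slc27a2 and Slc12a8, which parted the media in the hybrid outgrowths, were near background in BALB/c ICM too. Slc27a2 read 5.04, 4.65 and 4.49 in ICM, 7.47 and 7.27 in BO-3 and 6.89, 6.74 and 6.90 in ESCs (4.33-fold above ICM, adjusted p = 1.08e-05, limma). Slc12a8 read 4.75, 4.40 and 4.42 in ICM, undetected, 6.02 and 5.90 in BO-3 and 6.71, 6.41 and 6.46 in ESCs (at least 3.15-fold, adjusted p = 8.77e-07). In both genes every outgrowth and ESC array exceeded every ICM array. Slc7a9, the carrier that was high in SBIO-3, was at least 1.81-fold higher in ESCs than in ICM (adjusted p = 3.19e-06).

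The falling genes took 2 courses. Slc15a2 read 11.19, 11.13 and 10.75 in BALB/c ICM, 8.66 and 8.00 in BO-3 and 10.20, 10.11 and 9.70 in BO-5. It then declined to 7.30, 6.38 and 6.98 in BO-9 and to 4.80, 4.37 and 4.28 in ESCs, where 1 of 3 arrays detected it. The measured change from ICM to ESC was log2 -6.54 ± 0.25, or 93.15-fold (adjusted p = 1.07e-12, limma), against an ESC level mostly not above background. Slc30a1 also stepped down early, from 11.25, 11.23 and 11.20 in ICM to 9.38 and 9.45 in BO-3 and to 7.30, 7.32 and 7.19 in ESCs (15.6-fold lower, adjusted p = 2.07e-11). Slc7a6, a light chain that exchanges cationic and neutral amino acids, read 10.32, 10.31 and 10.41 in ICM, 8.49 and 8.31 in BO-3 and 6.66, 7.01 and 6.94 in ESCs (11.2-fold lower, adjusted p = 1.05e-11).

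Other members were not called lower in BO-3 and were low in ESCs. Slc38a4 read 10.31, 10.28 and 10.20 in ICM, 9.99 and 10.09 in BO-3, 8.40, 9.23 and 8.62 in BO-9 and 6.39, 4.70 and 4.73 in ESCs. It was 31.8-fold lower in ESCs than in ICM (log2 -4.99 ± 0.33, adjusted p = 9.03e-10, limma), with the gene detected on 1 of 3 ESC arrays. Slc34a2 read 8.38, 8.96 and 8.24 in ICM, 8.33 and 7.93 in BO-3, and 4.47, 4.31 and 4.30 in ESCs, undetected, at least 13.6-fold lower (adjusted p = 1.28e-11). Slc1a1 read 8.77, 8.52 and 9.02 in ICM, 9.69 and 9.82 in BO-3, and 5.53, 5.09 and 4.75 in ESCs (12.5-fold lower, adjusted p = 6.45e-11). Slc5a6, the biotin and pantothenate transporter, held at 12.00, 12.01 and 12.02 in ICM and 12.05 and 11.97 in BO-3, and read 9.07, 8.53 and 8.87 in ESCs (9.11-fold lower, adjusted p = 7.17e-11). Slc22a5, the carnitine transporter, read 9.18, 8.51 and 9.03 in ICM and 6.23, 5.83 and 5.65 in ESCs (8.03-fold lower, adjusted p = 2.75e-09). No ESC array of these 5 genes reached an ICM array.

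**Figure D3:**
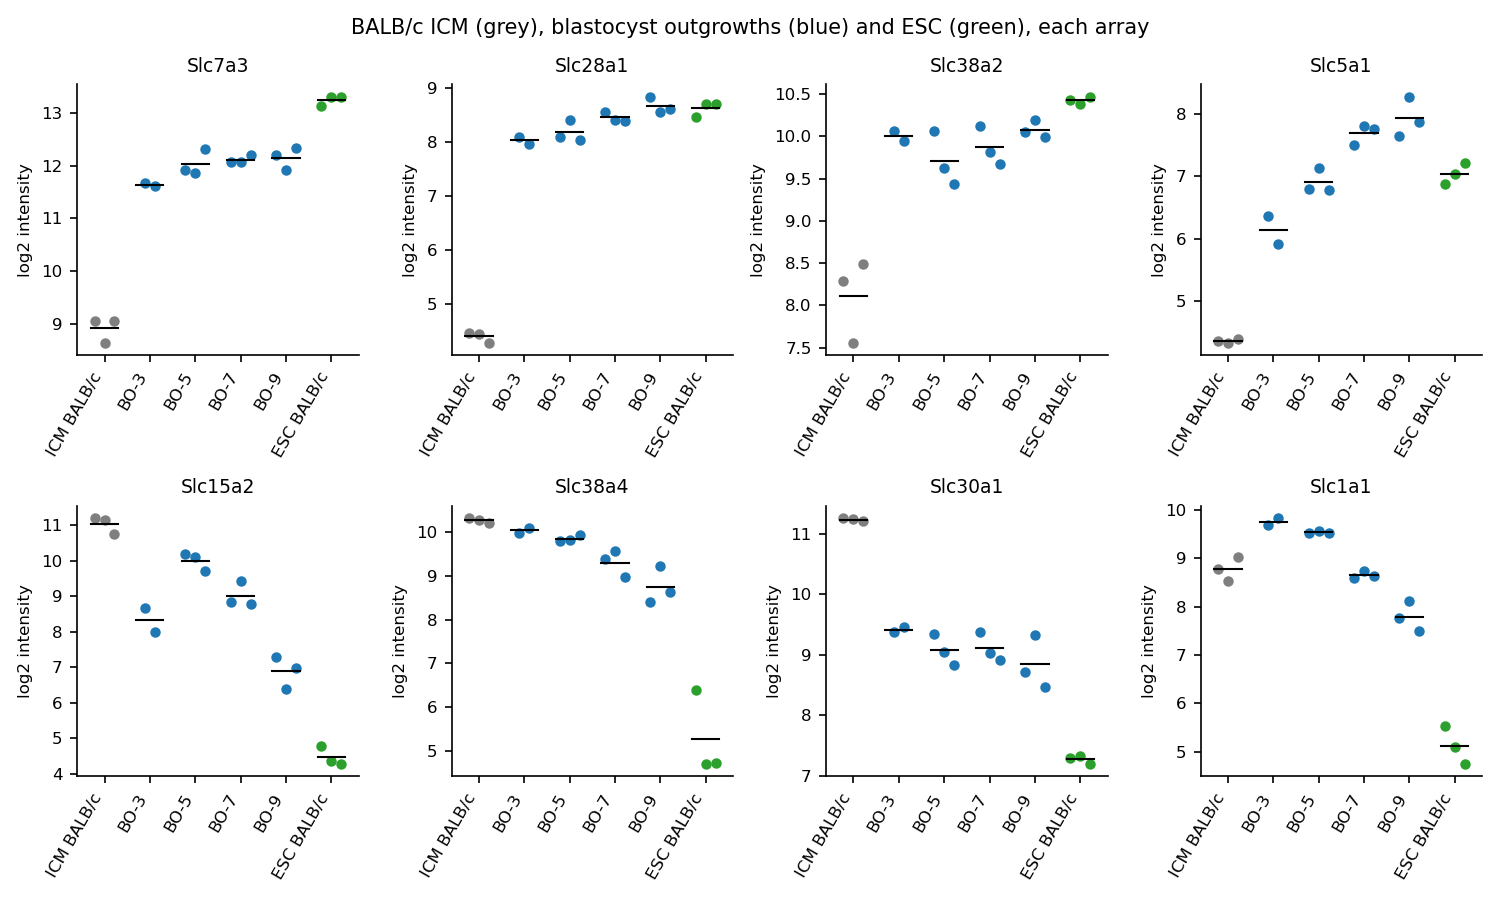
Log2 intensity of 8 solute carrier genes on each BALB/c array of ICM (grey), blastocyst outgrowths BO-3 to BO-9 (blue) and ESCs (green), with BO-3 replicate 1 left out. Points are arrays (2 in BO-3, 3 in the other groups) and lines are group means. Slc7a3 and Slc28a1 rise between ICM and BO-3, and Slc15a2, Slc38a4, Slc30a1 and Slc1a1 reach their lowest level in ESCs.

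The step from BALB/c ICM to BO-3 had more members higher than lower. Of 162 members 59 were called (36.4%), 39 higher and 20 lower, against 23.2% of all genes tested, of which more were also higher (14.4%) than lower (8.79%). Slc47a1, an exporter of organic cations, read 6.06, 4.76 and 6.64 in ICM and 10.46 and 10.67 in BO-3 (26.8-fold, adjusted p = 8.02e-07, limma). Slc7a8 was undetected in ICM at 4.39, 4.40 and 4.45 and read 7.71 and 7.95 in BO-3 (at least 7.76-fold, adjusted p = 2.25e-09). Slc52a3, a riboflavin transporter, read 7.09, 6.58 and 6.54 in ICM against 9.84 and 10.07 (9.30-fold, adjusted p = 2.11e-08). In these genes the 2 outgrowth arrays agreed closely and lay above all 3 ICM arrays. Slc24a3, a potassium-dependent sodium-calcium exchanger, was at least 6.73-fold higher (adjusted p = 8.19e-09). Among lower members, Slc1a3 read 10.40, 9.78 and 10.28 in ICM and 7.72 and 7.68 in BO-3 (5.47-fold, adjusted p = 9.75e-08), and the potassium-chloride cotransporter Slc12a7 read 7.76, 7.82 and 8.12 against 5.46 and 5.34 (5.65-fold, adjusted p = 1.10e-08). With BO-3 replicate 1 included, 37 members were called, 25 higher and 12 lower. Trophectoderm markers averaged 9.06 to 9.17 in ICM and 10.15 to 10.33 in BO-3, with 4 of 9 called higher and 2 lower. Primitive endoderm markers averaged 8.62 to 9.09 against 9.76 to 9.92, with 6 of 11 called higher and 2 lower. The part of either list was not tested.

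Between BO-3 and BO-9 nearly all called members fell, 19 of 21, while 2 rose (13% of 162 members called, against 6.13% of all genes tested). Among all genes 3.5% were called lower and 2.63% higher. Amino acid carriers made up 7 of the 19. Slc7a8 dropped to 5.72, 4.91 and 5.17 (5.91-fold, adjusted p = 1.28e-06, limma) and Slc44a4 went from 9.64 and 9.61 to 7.34, 7.45 and 7.76 (4.31-fold, adjusted p = 3.60e-06). The members that rose were Slc5a1 (3.46-fold, adjusted p = 1.09e-05) and Slc12a8 (2.16-fold, adjusted p = 0.0068). None of 25 mitochondrial carriers was called. Trophectoderm markers averaged 10.15 to 10.33 in BO-3 and 8.48 to 9.29 in BO-9, with 5 of 9 called lower, and primitive endoderm markers 9.76 to 9.92 against 8.06 to 8.19, with 5 of 11 called lower. Their part in these falls was not tested.

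From BO-9 to ESCs 30 of 162 members were called (18.5%), 9 higher and 21 lower, against 15.5% of all genes tested. Slc38a4 (11.1-fold), Slc47a1 (10.5-fold), Slc1a1 (6.35-fold) and Slc15a2 (5.30-fold) had the largest falls, with adjusted p from 2.38e-08 to 1.60e-05 (limma). Slc47a1 read 8.87, 9.62 and 8.80 in BO-9 and 6.86, 4.55 and 5.71 in ESCs, so that its ESC arrays disagreed among themselves. Higher in ESCs were Slc23a4, of the ascorbate and nucleobase family, which read 4.54, 4.39 and 4.70 in BO-9 and 6.88, 7.12 and 6.98 in ESCs (5.46-fold, adjusted p = 6.73e-06), and the sodium-bicarbonate exchanger Slc4a8, with 6.36, 6.80 and 6.25 against 8.79, 8.15 and 8.32 (3.87-fold, adjusted p = 5.00e-06). Over the same step 8 of the trophectoderm markers and 7 of the primitive endoderm markers were called lower. The mean level of the former was 8.48 to 9.29 in BO-9 and 5.40 to 6.67 in ESCs, and that of the latter was 8.06 to 8.19 against 5.24 to 6.75. Their part in the falls was not tested.

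By substrate, the members called between BALB/c ICM and ESC were spread over many groups. The amino acid group had 3 higher and 7 lower of 22 tested, Slc7a6os among the lower, and nucleotide sugar carriers had 5 lower and none higher of 17. Metal carriers had 2 higher and 3 lower of 16, and sodium-coupled carriers of sugars and other solutes had 1 higher and 3 lower of 4. Mitochondrial carriers had 1 higher and 2 lower of 25. Over all genes tested, 15.8% were called higher and 13.4% lower. Of the glucose facilitators, Slc2a1 read 9.89, 9.91 and 10.09 in ICM, 11.49 and 11.71 in BO-3 and 10.97, 10.89 and 10.97 in ESCs. The ESC change was log2 0.98 (adjusted p = 0.000449, limma), just under the fold limit. Slc2a3 read 12.63, 12.59 and 12.69 in ICM and 13.02, 12.72 and 12.81 in ESCs (log2 0.22, adjusted p = 0.418). Slc25a5 (0.15, adjusted p = 0.369), Slc7a5 (0.14, adjusted p = 0.513) and Slc39a4 (-0.27, adjusted p = 0.182) were not called.

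In the hybrid set, Slc7a3 climbed from 9.60 and 9.35 in ICM to 10.18 and 10.24 in IO-0.5, 11.88 and 11.58 in IO-1 and 12.13 and 12.29 in IO-2. It then stayed between 12.16 and 12.58 on every R2i array up to P15, where it was 6.66-fold above ICM (adjusted p = 4.36e-08, limma). Slc38a2 followed, with 7.59 and 7.88 in ICM, 9.50 and 9.76 in IO-1, 10.68 and 10.81 in IO-2 and 10.74 and 10.61 in P15 (7.66-fold, adjusted p = 5.10e-08). Slc27a2 was undetected in ICM, IO-0.5 and IO-1, at 4.29 to 4.49, and appeared at 7.30 and 7.53 in IO-2, at least 5.31-fold above IO-1 (adjusted p = 9.53e-07). Slc12a8 likewise read 4.50 and 4.41 in IO-1 and 6.59 on both IO-2 arrays (at least 3.00-fold, adjusted p = 1.88e-05). Both were still present in P15, at 7.06 and 7.15 and at 7.15 and 6.74. Slc28a1 read 4.34 and 4.55 in ICM, 7.97 and 7.22 in IO-2 and 9.23 and 8.36 in P2.

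**Figure D4:**
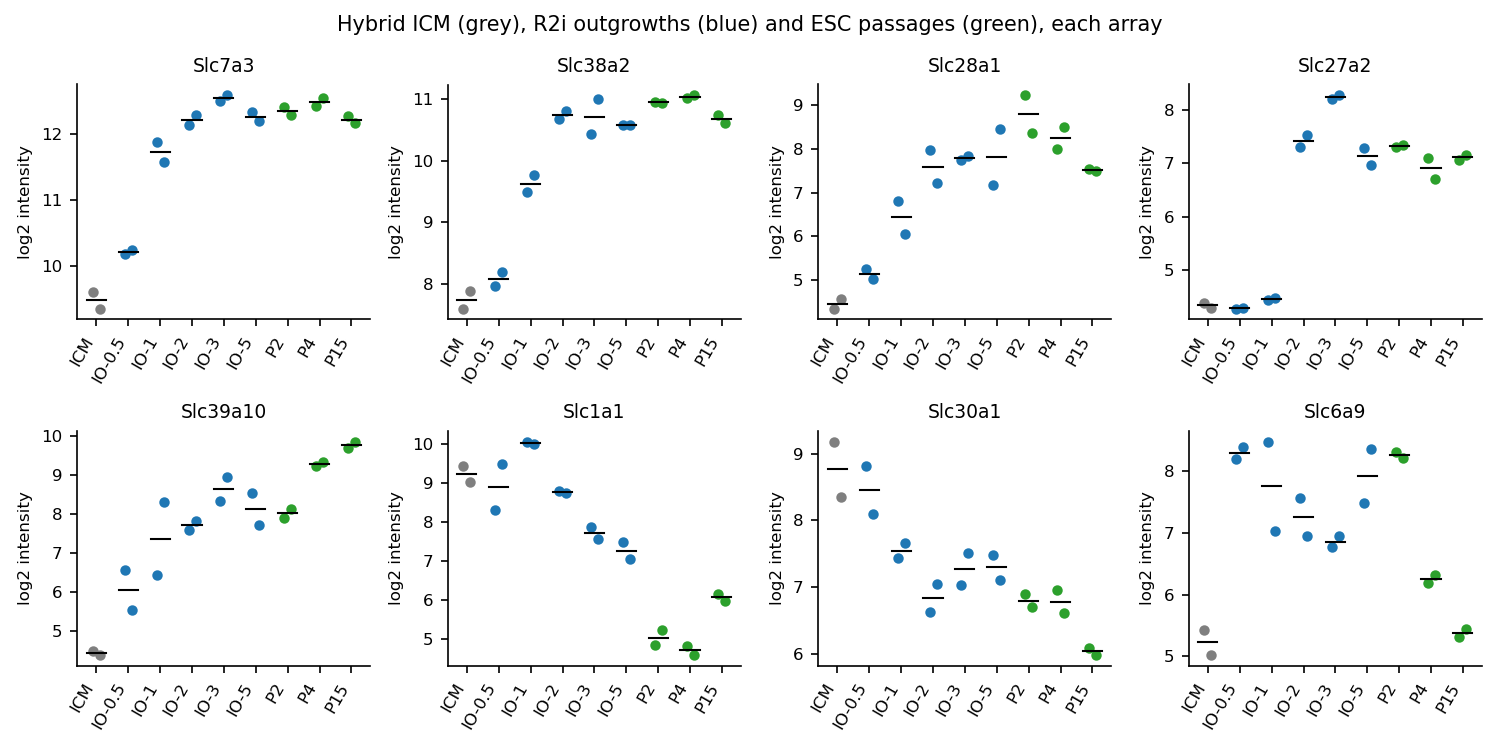
Log2 intensity of 8 solute carrier genes on each hybrid array of ICM (grey), R2i outgrowths IO-0.5 to IO-5 (blue) and ESC passages P2 to P15 (green). Points are arrays (2 a group) and lines are group means. Slc27a2 is flat from ICM to IO-1 and steps up in IO-2, and Slc6a9 is lower in P15 than in P2.

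In the fit over all hybrid arrays the earliest step called more members than any later step, an order that turned when only the arrays compared were fitted (0 for IO-0.5 against ICM and 49 for P15 against P2). From ICM to IO-0.5, 51 of 186 were called (27.4%), 24 higher and 27 lower, against 24% of all genes tested. Slc15a2 read 4.42 and 4.35 in ICM and 8.16 and 7.32 in IO-0.5, at least 1.77-fold higher (adjusted p = 0.000249, limma). The glycine transporter Slc6a9 read 5.43 and 5.02, undetected, against 8.19 and 8.38 (at least 2.60-fold, adjusted p = 2.13e-05). Falling members included Slc1a3, with 9.73 and 9.43 in ICM and 6.13 and 5.40 in IO-0.5 (14.0-fold, adjusted p = 6.87e-06), and Slc2a8, an intracellular sugar facilitator, with 9.04 and 9.10 against 6.17 and 6.99 (5.61-fold, adjusted p = 8.36e-06). The groups were apart in each. With array medians made equal, 12 members were called and all were higher, and that scaling moved the median of all genes by 0.73. Trophectoderm markers averaged 7.2 to 7.3 in ICM, where 4 were undetected, and 9.5 to 9.6 in IO-0.5, with 8 of 9 called higher. Of 11 primitive endoderm markers, 2 were called higher and 2 lower. The part of either list in the member changes was not tested.

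Later steps called few members. From IO-0.5 to IO-1 they were 6 (3.23%, against 3.85% of all genes), 5 higher and 1 lower. Slc9a3r2, the scaffold protein, went from 4.42 and 4.38 to 7.42 and 7.13 (at least 4.26-fold, adjusted p = 0.000379, limma), and Slc7a7, Slc38a2, Slc7a3 and Slc6a6 rose by 2.51- to 4.16-fold. From IO-1 to IO-2 there were 6 (3.23%, against 2.01%), 5 higher and 1 lower, among them Slc24a3, from 4.31 and 4.37 to 7.32 and 7.13 (at least 4.67-fold, adjusted p = 4.12e-05). Without IO-1 replicate 1 or IO-2 replicate 1 this count was 3. From IO-2 to IO-5 only the folate transporter Slc46a1 was called (0.538%, against 0.677%), with 6.64 and 6.61 against 4.73 and 5.25 (3.11-fold lower, adjusted p = 0.00387). The count was 0 without IO-2 replicate 1, IO-2 replicate 2 or IO-5 replicate 1, and 2 without IO-5 replicate 2. From IO-5 to P2 only Slc24a3 was called (0.538%, against 1.46%), from 7.18 and 6.03 to an undetected 4.48 and 4.32 (at least 3.60-fold lower, adjusted p = 0.000319). Slc24a3 was thus seen from IO-2 to IO-5 and not before or at P2. From IO-5 to P2, 7 of 11 primitive endoderm markers and 5 of 9 trophectoderm markers were called lower. The mean of the former was 7.73 to 8.17 in IO-5 and 5.00 to 5.08 in P2. Their part in the fall of Slc24a3 was not tested.

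Passaging from P2 to P15 called 18 members (9.68%), 9 higher and 9 lower, fewer than the 14.4% of all genes tested. Slc6a9 fell from 8.31 and 8.21 in P2 to 6.20 and 6.33 in P4 and 5.31 and 5.45 in P15 (7.38-fold, adjusted p = 0.000168, limma). Slc6a15, a carrier of branched-chain amino acids and proline, rose from an undetected 4.51 and 4.51 to 5.67 and 5.78 in P4 and 7.26 and 7.20 in P15 (at least 5.56-fold, adjusted p = 2.66e-05). The P4 arrays lay between P2 and P15 for both. Slc25a39, a mitochondrial carrier of glutathione, went from 8.39 and 8.42 to 6.02 and 6.15 (4.99-fold lower, adjusted p = 0.00147), and the sodium-potassium-chloride cotransporter Slc12a2 from 10.75 and 11.26 to 13.11 and 12.91 (4.01-fold higher, adjusted p = 0.00276). Slc7a6 read 6.58 and 6.66 in P2 and 8.34 and 8.56 in P15 (3.56-fold higher, adjusted p = 0.000262). Of 21 genes of the amino acid response tested, which Atf4 drives, 9 were called lower and 1 higher over the same passages, with Atf4, Chac1 and Ddit3 among the lower, and a median change of -1.09. From ICM to IO-0.5, 8 of these genes were called higher and 1 lower, and between ICM and P15 5 were higher and 5 lower. The part of this response in the member changes was not tested. Leaving out any 1 of the 4 arrays reduced the 18 member calls to 4.

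Between hybrid ICM and P15, 89 of 186 members were called (47.8%), 43 higher and 46 lower, against 49.9% of all genes tested. The zinc importer Slc39a10 was undetected in ICM, at 4.48 and 4.39, and read 9.69 and 9.85 in P15 (at least 7.26-fold, adjusted p = 6.66e-07, limma). The thiamine transporter Slc19a2 read 6.58 and 5.60 against 10.52 and 10.61 (22.2-fold, adjusted p = 8.45e-08), and the mitochondrial ornithine carrier Slc25a15 read 6.49 and 4.33 against 9.72 and 9.74 (20.0-fold, adjusted p = 5.01e-06), both detected on 1 of the ICM arrays. From BALB/c ICM to ESCs, Slc39a10 rose 2.54-fold and Slc19a2 2.75-fold. Slc25a15 was not called there, at 7.39 to 7.95 in ICM and 7.65 to 8.18 in ESCs. In BALB/c ICM on MouseRef-8 arrays all were detected, with means of 7.05 (Slc39a10), 8.62 (Slc19a2) and 7.19 (Slc25a15). The part of the dim hybrid ICM arrays in the hybrid rises was not tested. Slc1a1 (8.98-fold) and Slc30a1 (6.67-fold, from 9.18 and 8.36 to 6.09 and 5.98) were lower in P15. With array medians made equal the median of all genes moved by 1.68 and 83 members were called, all higher. Among genes that this turned were Slc1a1, at 0.32, and Slc30a1, at 0.50.

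The 10 members whose group means ranged most widely over the 11 hybrid groups were Slc1a1, Slc39a10, Slc1a3, Slc29a1, Slc19a2, Slc7a9, Slc44a3, Slc7a8, Slc28a1 and Slc25a15, with ranges from 5.34 down to 4.32 log2 units. Slc1a1 had its highest mean in IO-1, at 10.07 and 10.02, and its lowest in P4, at 4.83 and 4.58. Slc29a1, the equilibrative nucleoside transporter, was highest in SBIO-1, at 10.14 and 10.24, and lowest in ICM, at 6.82 and 4.48. ICM, where the arrays were dim, was the lowest group of 6 of the 10 and the highest of none. ICM was the group with the highest mean for 43 members (23.1%, against 22% of all genes) and with the lowest for 51 (27.4%, against 30.7%). P15 was highest for 24 (12.9%, against 20.3%) and IO-1 for 14 (7.53%, against 3.73%).

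The 2 strains were then set side by side from ICM to established ESCs, over separate samples and array types. Of 42 members called higher in P15 than in hybrid ICM and tested in both sets, 31 had the same sign in BALB/c (73.8%, against 70.1% of all genes) and 17 were also called (40.5%, against 32.7%). Slc7a3, Slc38a2, Slc12a2 and Slc19a2 were among them. Of 37 members called lower, 28 had the same sign (75.7%, against 68.3%) and 14 were also called (37.8%, against 21.3%), Slc30a1, Slc38a4 and Slc1a1 among them. The hybrid change of these 3 turned to 0.50, 0.22 and 0.32 with array medians made equal. In each direction 2 members were called the opposite way. Slc44a1 and Slc35e1 were higher in P15 and lower in BALB/c ESCs. Slc25a1 and Slc27a3 were lower in P15 and higher in BALB/c ESCs, and their hybrid change turned with array medians made equal. The passage number, the array type and the strain differ together between the sets and cannot be told apart.

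**Figure D5:**
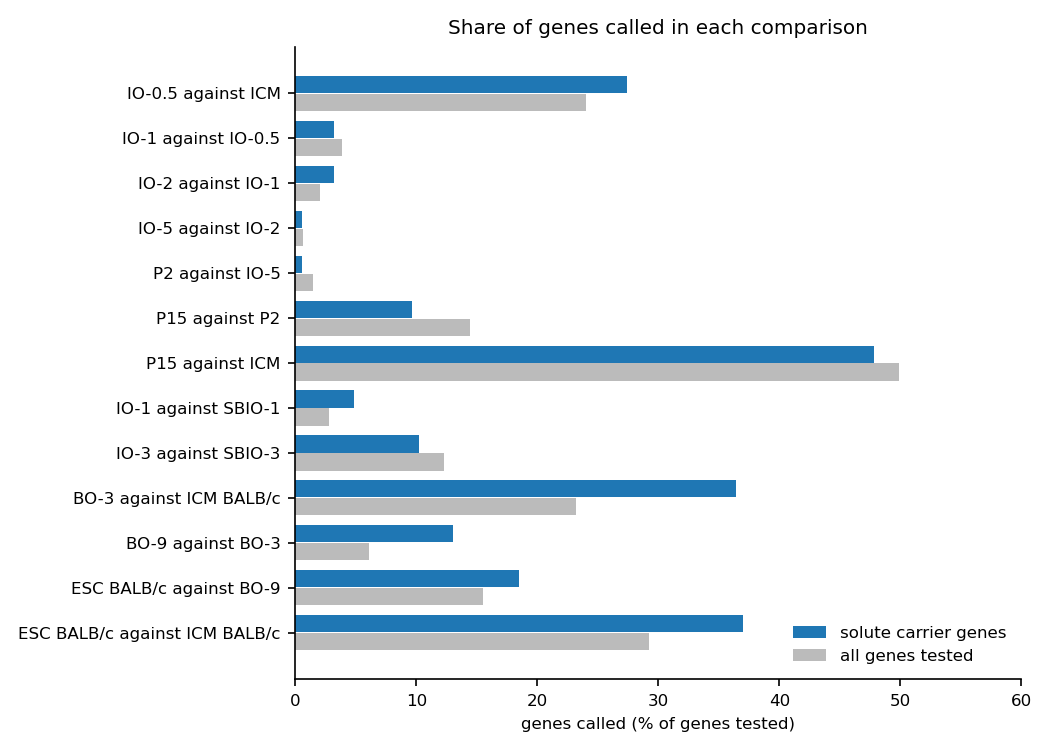
Share of solute carrier genes (blue, 186 on hybrid and 162 on BALB/c arrays) and of all genes tested (grey, 9162 and 10086) that were called in each comparison, in percent of genes tested. The blue bar is longer than the grey one in all 4 BALB/c comparisons, with 36.4% against 23.2% for BO-3 and ICM, and shorter for P15 and P2, with 9.68% against 14.4%. The 162 members had passed the detection rule in both sets, and the 10086 genes had to pass only on the BALB/c arrays.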

How the data were processed

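Expression was measured on Illumina bead arrays, WG-6 for 18 BALB/c samples and MouseRef-8 for 22 hybrid samples and 2 BALB/c ICM samples (24 arrays). RNA was amplified before labelling, per the study's methods, so low levels may be less even than high ones. The authors deposited, per probe and array, a mean bead intensity without normalization and a detection p-value. They also deposited normalized log2 values, which served to check the reading of each column and as an alternative (lowest correlation 0.9999649 on MouseRef-8 and 0.9999975 on WG-6 arrays). The labels name GenomeStudio and limma without versions, and columns of the authors' own comparisons were not used.

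Here the intensities of each set were background-corrected and quantile-normalized with neqc (limma 3.58.1 in R 4.3.3), using the detection p-values and an offset of 16, and are given in log2 units. Levels are compared within 1 probe only. A probe was kept at a detection p under 0.05 on every array of at least 1 group, and 1 probe a gene (highest mean) was tested. Probe symbols came from the files. On MouseRef-8, 23978 probes had 1 symbol and 1719 had none. On WG-6, 34885 had 1, 18 had several and 10378 had none. BO-3 replicate 1 was left out, since BO-3 appears with 2 replicates in the published comparison, and all 22 hybrid arrays, or 17 BALB/c arrays, shared 1 limma fit (lmFit and eBayes, 11 residual degrees of freedom each), with Benjamini-Hochberg adjustment over all 9162 or 10086 genes. The 2 BALB/c ICM arrays of the hybrid run entered only an alternative fit. Precision is limited by 2 or 3 arrays a group. The scripts were tested on simulated data.

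The members and all gene lists were chosen with earlier results of these data known. Named are, per comparison, up to 6 called members with the largest change in each direction whose arrays do not overlap, the 10 members of widest range, 25 textbook transporters of embryos and ESCs whether called or not, and members that a count or a compared gene turns on, picked after their values were seen. Of the textbook genes Slc1a5, Slc16a1 and Slc25a4 did not meet the detection rule. Alternatives were an offset of 50, no background correction, equal array medians, the deposited log2 values, no filter or detection on at least 2 arrays, only the arrays compared, a replicate block, BO-3 replicate 1 or the further BALB/c ICM arrays included and each array left out. Promoter windows were matched by symbol to RefSeq (GRCm38.p6) with Python 3.11.15.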

Additional observations from a re-analysis of the deposited data

Results flagged for a closer look

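The difference between R2i and SB outgrowths was itself unequal on days 1 and 3 for 18 solute carrier genes, by the interaction term of the limma fit. Each value is the day 3 difference minus the day 1 difference in log2 units. It was more positive on day 3 for Slc27a2 (4.72), Slc1a3 (4.40), Slc12a8 (3.88), Slc7a3 (3.63), Slc44a3 (2.93), Slc29a4 (2.87) and Slc6a6 (2.43). The aspartate-glutamate carrier of mitochondria Slc25a12 (2.12), Slc35d3 (2.03), Slc38a5 (1.495) and Slc38a2 (1.26) completed that direction. Slc38a5 met the detection rule through SBIO-1 only, the group where it was highest. It was more negative on day 3 for the amino acid carriers Slc7a8 (-4.91), Slc7a9 (-2.63) and Slc36a1 (-2.38), for the choline-like carrier Slc44a4 (-3.25), for Slc12a9 (-2.14) and for the zinc carriers Slc39a7 (-1.83) and Slc39a4 (-1.65). Over the same arrays 8 of 9 trophectoderm markers and 2 of 11 primitive endoderm markers were called more negative on day 3. Of 8 pluripotency markers 4 were called more positive. The part of cell mixture in the 18 values was not tested.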

How the results depend on the processing

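The arrays fitted, the background correction and the scaling changed the most counts of members called. Fitting only the arrays compared gave 0 members for IO-0.5 against ICM, IO-1 against IO-0.5, IO-2 against IO-1, IO-5 against IO-2 and P2 against IO-5, and 49 for P15 against P2, 46 for P15 against ICM, 4 for IO-1 against SBIO-1 and 1 for IO-3 against SBIO-3. No background correction, which shrinks folds, gave 23 for IO-0.5 against ICM, 3 for IO-2 against IO-1, 0 for IO-5 against IO-2, 0 for P2 against IO-5, 49 for P15 against ICM, 8 for IO-3 against SBIO-3, 25 for BO-3 against ICM, 11 for ESC against BO-9 and 33 for ESC against ICM. An offset of 50 gave 39 for BO-3 against ICM, and including BO-3 replicate 1 gave 37.

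Array medians made equal gave 12 for IO-0.5 against ICM (12 higher, 0 lower), 0 for IO-1 against IO-0.5, IO-5 against IO-2 and P2 against IO-5, 7 for P15 against P2 (3 and 4), 3 for IO-1 against SBIO-1 (0 and 3) and 45 for the difference between days (44 and 1). It also moved the split to 83 and 0 for P15 against ICM, 23 and 1 for IO-3 against SBIO-3, 56 and 10 for BO-3 against ICM, 28 and 26 for ESC against ICM and 4 and 23 for ESC against BO-9. This scaling moved the median of all genes by 0.73 for IO-0.5 against ICM, 1.68 for P15 against ICM, 1.08 for IO-3 against SBIO-3, -0.71 for IO-1 against SBIO-1 and 1.80 for the difference between days. It turned P15 against ICM for Slc38a4 (0.22), Slc1a1 (0.32), Slc30a1 (0.50), Slc25a1 (2.43), Slc1a3 (1.68) and Slc27a3 (1.91). For IO-3 against SBIO-3 it turned Slc39a7 (0.42), Slc39a4 (0.72) and Slc35a2 (0.13), and for the difference between days Slc12a9 (0.43), Slc39a7 (1.35) and Slc39a4 (1.47). Relative to that median, 19 of 19 members called for IO-3 against SBIO-3, 78 of 89 for P15 against ICM and 17 of 18 for the difference between days kept their sign. The cause was not tested.

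Leaving out 1 array at a time gave 37 to 60 for IO-0.5 against ICM, 4 to 8 for IO-1 against IO-0.5, 3 to 4 for IO-2 against IO-1, 0 to 2 for IO-5 against IO-2, 1 for P2 against IO-5, 4 for P15 against P2, 74 to 92 for P15 against ICM, 3 to 9 for IO-1 against SBIO-1, 11 to 23 for IO-3 against SBIO-3 and 12 to 24 for the difference between days. In BALB/c it gave 56 to 63 for BO-3 against ICM, 17 to 23 for BO-9 against BO-3, 29 to 33 for ESC against BO-9 and 58 to 63 for ESC against ICM. In the hybrid set a lone array was assumed to vary like the other groups. Replicate numbers did not pair the samples, since deviations of same-numbered arrays correlated from -0.49 to 0.50 over 55 pairs of hybrid groups, with 13 over 0.1. With the replicate number as a block, 48, 10 and 20 members were called for IO-0.5 against ICM, IO-1 against SBIO-1 and the difference between days, and 19 for IO-3 against SBIO-3, and all counts stayed within 1.5 times of those without the block. Slc7a8 lost its IO-3 call under the block and with no filter. Over all alternatives, of the values of named genes 2539 kept their side of the limits, 359 lost a call, 11 gained one and 12 turned.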

Other observations

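The hybrid run held 2 further BALB/c ICM samples on MouseRef-8 arrays, and the labels do not say whether their RNA is that of the WG-6 samples. After joint normalization, values of both strains could be read on 1 array type, with no test. Slc15a2 read 9.40 and 9.62 in BALB/c ICM and 4.41 and 4.34 in hybrid ICM, where it was undetected. On the WG-6 arrays it had the highest levels of all BALB/c groups in ICM. The sodium-phosphate cotransporter Slc34a2 read 8.00 and 8.07 in BALB/c ICM and 5.91 and 6.67 in hybrid ICM. Slc7a3 read 9.08 and 9.57 in BALB/c ICM on this array type, and Slc27a2 and Slc28a1 were undetected in it, as in hybrid ICM. These BALB/c arrays detected 37.9% and 37.1% of probes, against 24.2% and 18% on the hybrid ICM arrays, so that strain and array brightness cannot be told apart.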
